A study of Mus musculus with 20 samples.

Results

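The 10 minor tRNA isotypes described here are the rows named His, Ala, Thr, Asn, Lys, Asp, Cys, Gln, Leu and Ser in 2 count tables of small RNA from mouse cauda epididymosomes. They were chosen by name from the isotypes other than Gly, Glu and Val, and both tables hold all 10. Other such isotypes, among them Arg, Met, iMet, Pro and SeC, are not in the chosen set. They are 10 of 24 rows named for a tRNA isotype, among 72034 features in one table and 59035 in the other. Mitochondrial tRNAs have rows of their own. A row gives neither the anticodon nor the gene copy, and the labels do not say whether it holds whole tRNAs or fragments.

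Epididymosomes are vesicles that epididymal cells shed into the lumen, collected here from the fluid left after sperm swim-up by ultracentrifugation at 120000 rcf for 2 h. The MSUS group held 5 males of 9 months (animals 2, 4, 6, 8 and 14). Their litters had been separated from the dam without warning for 3 h a day over the first 2 weeks of life, and the dams were stressed by forced swim or restraint. The Control group held 5 males of the same age (animals 3, 5, 7, 9 and 11) from litters left alone. The labels name no strain, genotype or shared litters. The p-values treat the 5 males of a group as independent, which cannot be checked, since whole litters and their dams were treated. Every library was sequenced in 2 runs, without and with a size selection meant to enrich miRNAs, which gave 20 samples. The tables are called here, after their labels, the with-selection and the without-selection table.

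Library totals lay between 1872084 and 3647956 counts in the with-selection table and between 215231 and 871461 in the without-selection table. The labels of the tables conflict with their contents, because miRNAs took 10.9 to 17.0% of counts in the with-selection table and 52.4 to 72.2% in the other, so any direction between tables refers to the labels alone. Of the epididymal epithelium markers, such as Crisp1 and Adam7, 13 of 13 had a row in the with-selection table, with summed counts of 2412 to 10401 in MSUS libraries and 4829 to 19358 in Control libraries. Of these 13, 8 passed the count filter there, beside 8 of 8 sperm and spermatid, 9 of 9 muscle and stroma and 3 of 9 blood cell markers. All tRNA isotype rows together took 23.8 to 66.0% of counts in MSUS libraries and 14.5 to 43.6% in Control libraries of the with-selection table. The same share was 8.65 to 17.0% in MSUS libraries and 6.20 to 25.3% in Control libraries of the without-selection table. In the with-selection table MSUS 14 (23.8%), Control 9 (14.5%) and Control 11 (25.3%) had the lowest tRNA shares, and results that turn on these libraries are given with and without them. In bulk vesicle RNA, fewer vesicles of a kind and less RNA per vesicle cannot be told apart.

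A tRNA carries an amino acid to the ribosome and reads codons with its anticodon. Its gene is transcribed by RNA polymerase III from promoter elements, the A box and the B box, that lie inside the tRNA itself. Nucleases such as angiogenin cut mature tRNAs in or near the anticodon loop, and 5′ fragments of tRNA-Gly and tRNA-Glu are known as leading small RNAs of the epididymis and of maturing sperm. The members differ in how the anticodon is modified. His, Asn and Asp tRNAs, like Tyr tRNA, can carry queuosine, placed by Qtrt1 and Qtrt2. Some Ala, Thr, Ser and Leu tRNAs carry inosine at the wobble position, made by Adat2 and Adat3. Lys and Gln tRNAs with a U at that position are modified there by pathways that include Elp3 and Ctu1. Leu and Ser tRNAs also have a long variable arm, which the other members lack.

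RefSeq annotates 235 nuclear tRNA genes for the 10 isotypes in GRCm38.p6. Cys has the most with 56, all with the anticodon GCA, followed by Ala with 33, Lys with 26, Leu with 25, Ser with 22, Thr with 17, Asp and Gln with 16 each, Asn with 13 and His with 11. Of the Lys genes 24 have the anticodon CTT and 2 TTT. The sequences below show one or more genes of 6 isotypes that could be read from RefSeq promoter windows or GENCODE transcripts of GRCm38. They show the sizes and arms that separate the isotypes, since the count rows carry no sequence of their own. Each runs 5′ to 3′ without the CCA end, with the anticodon in capitals. Whether these copies gave the counted reads is unknown.
n-TAagc16 (Ala, chr13:21222586-21222657, plus strand, whole gene, in the promoter window of Gm32420): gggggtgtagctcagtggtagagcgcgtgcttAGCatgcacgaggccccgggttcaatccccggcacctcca
n-TTagt9 (Thr, chr7:35234770-35234843, minus strand, whole gene, in the promoter window of Gm38989): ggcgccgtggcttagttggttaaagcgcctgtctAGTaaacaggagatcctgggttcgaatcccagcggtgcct
n-TNgtt6 (Asn, chr1:171033969-171034015, minus strand, first 47 of 74 bases, in the promoter window of Gm35090): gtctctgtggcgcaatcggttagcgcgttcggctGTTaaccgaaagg
n-THgtg7 (His, chr3:96452495-96452556, plus strand, first 62 of 72 bases, in the promoter window of BC107364): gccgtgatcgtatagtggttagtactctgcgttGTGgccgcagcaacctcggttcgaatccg
n-TLtaa3 (Leu, chr10:12922574-12922653, minus strand, first 80 of 83 bases, in a transcript of B230208H11Rik): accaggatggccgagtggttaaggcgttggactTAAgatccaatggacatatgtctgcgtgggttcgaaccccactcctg
n-TLaag4 (Leu, chr7:120917528-120917598, plus strand, bases 12 to 82, in the promoter window of Polr3e): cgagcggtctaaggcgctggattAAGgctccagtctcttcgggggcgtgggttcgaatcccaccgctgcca
n-TSaga9 (Ser, chr4:10874064-10874145, plus strand, whole gene): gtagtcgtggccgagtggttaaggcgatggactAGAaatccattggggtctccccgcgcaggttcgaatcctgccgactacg
n-TStga1 (Ser, chr13:23518146-23518227, plus strand, whole gene): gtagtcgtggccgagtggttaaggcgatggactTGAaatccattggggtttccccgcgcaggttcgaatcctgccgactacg
n-TSgct5 (Ser, chr13:22050686-22050767, minus strand, whole gene, in a transcript of Gm48356): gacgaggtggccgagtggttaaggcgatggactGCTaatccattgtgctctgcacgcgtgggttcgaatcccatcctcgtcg

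The Ala and Thr genes shown are 72 and 74 bases long and the Ser genes 82, the difference lying in the variable arm that precedes the last stem. The first letters of the B box, GGTTCNA, searched on both strands, was found in 8 of the 9 stretches. The exception was the Asn stretch, which stops before that part of the gene. Among 32851 RefSeq promoter windows of 300 bases, 3196 (9.73%) held the motif.

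The 10 isotypes together were a small part of the tRNA counts of every library. With selection they summed to 4.71, 3.24, 4.17, 3.32 and 4.16% of tRNA counts in MSUS animals 2, 4, 6, 8 and 14, against 2.93, 4.54, 3.99, 7.49 and 5.03% in Control animals 3, 5, 7, 9 and 11. The MSUS values lay inside the Control range. Gly, Glu and Val took 91.8 to 96.8% of tRNA counts in the same libraries. Without selection the sums were 5.40, 5.23, 4.95, 5.78 and 5.68% in MSUS libraries, against 3.42, 7.94, 3.49, 7.08 and 5.50% in Control libraries. Again the Control animals spanned the wider range, with an SD of 2.05 percentage points against 0.339 in MSUS libraries. As a part of all counts the sums averaged 1.69 ± 0.444% in MSUS and 1.35 ± 0.289% in Control libraries of the with-selection table (SD, n = 5 each). Without selection these averages were 0.772 ± 0.165% in MSUS and 0.684 ± 0.191% in Control libraries. Sums over the chosen rows are descriptions and were not tested.

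**Figure D1:**
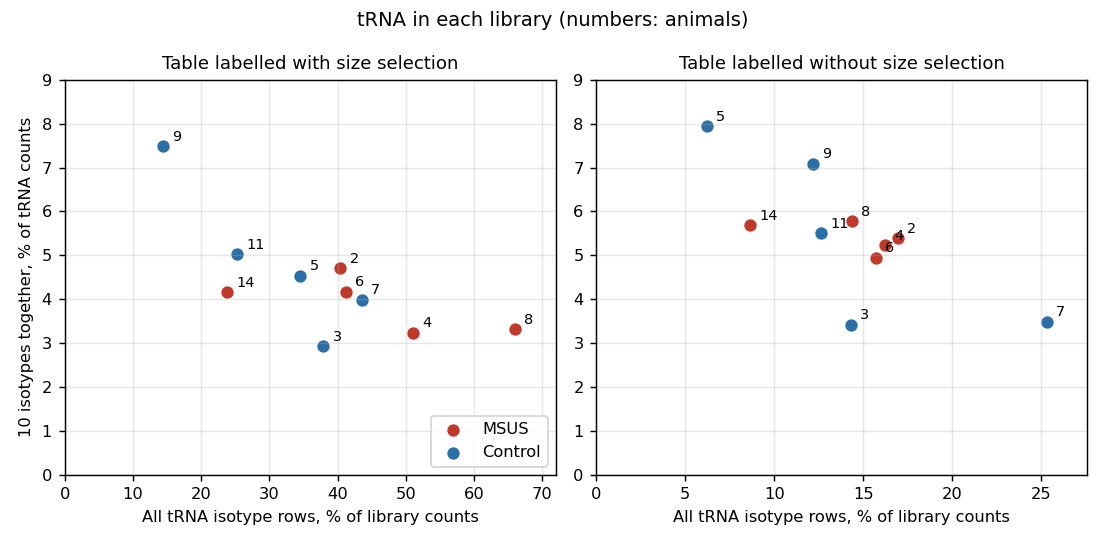
The 10 isotypes together as a percentage of tRNA counts (vertical axis) against all tRNA isotype rows as a percentage of library counts (horizontal axis), one point per library with its animal number, MSUS in red and Control in blue. In the with-selection table Control 9 had the lowest tRNA share (14.5%) and the highest sum of the 10 isotypes (7.49%), and in the without-selection table the MSUS libraries lay between 4.95 and 5.78%.

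Lys was the leading member. It held 2.16, 1.50, 2.18, 1.80 and 2.36% of tRNA counts in MSUS libraries of the with-selection table, against 1.76, 2.38, 2.22, 4.08 and 2.81% in Control libraries. The groups overlapped, and 0 of 5 MSUS libraries lay above the Control mean of 2.65%. Its without-selection shares were 2.05, 1.73, 1.90, 2.24 and 2.71% in MSUS libraries, against 1.75, 3.12, 1.54, 3.17 and 2.62% in Control libraries. Control 9 was the highest in both tables. Lys lay above the next member in 10 of 10 libraries of each table, and its mean per base of tRNA was 3.63 times that of Asp in the with-selection table and 3.61 times that of His in the without-selection table.

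His, whose tRNA receives an extra G at its 5′ end after transcription, had the widest range among Lys, His, Asp and Cys, 4.75-fold from the lowest to the highest of the with-selection libraries. Its with-selection shares were 1.08, 0.535, 0.618, 0.398 and 0.334% in MSUS libraries, against 0.227, 0.576, 0.482, 0.942 and 0.477% in Control libraries. MSUS 2 was the highest of all 10 and Control 3 the lowest. Its without-selection shares were 1.08, 0.593, 0.693, 0.670 and 0.444% in MSUS libraries, against 0.227, 0.777, 0.461, 0.858 and 0.435% in Control libraries. The same animals were highest and lowest there, and the 10 animals kept much of their order between tables (Spearman 0.89, a description over 10 animals whose 2 samples come from 1 library).

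Asp, a tRNA methylated in its anticodon loop by Trdmt1, had 0.698, 0.341, 0.614, 0.402 and 0.696% of with-selection tRNA counts in MSUS libraries, against 0.350, 0.686, 0.559, 1.33 and 0.641% in Control libraries. Control 9 stood highest, and the other libraries of both groups covered the same range. Its without-selection shares were 0.282, 0.263, 0.278, 0.312 and 0.430% in MSUS libraries, against 0.234, 0.454, 0.235, 0.488 and 0.380% in Control libraries. Cys ranged from 0.492 to 0.643% in MSUS libraries and from 0.460 to 0.837% in Control libraries of the with-selection table. Its without-selection range was 0.342 to 0.877% in MSUS libraries and 0.338 to 0.772% in Control libraries. With selection Asp lay above Cys in 6 of 10 libraries and Cys above His in 6 of 10, so the order of these 3 was not fixed, while His lay above Leu, the next member, in 10 of 10.

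The 6 remaining members each held less than 0.12% of tRNA counts in every with-selection library. Gln had 0.0860, 0.0461, 0.0615, 0.0545 and 0.0286% in MSUS libraries, against 0.0199, 0.0726, 0.0725, 0.0657 and 0.0298% in Control libraries. The lowest values were those of Control 3, MSUS 14 and Control 11. Without selection Gln had 0.296, 0.284, 0.328, 0.370 and 0.240% in MSUS libraries, against 0.0846, 0.469, 0.189, 0.254 and 0.203% in Control libraries. There 4 of 5 MSUS libraries lay above the Control mean of 0.240%, with Control 5 above all of them. Asn, also a queuosine tRNA, had 0.0263, 0.0161, 0.0255, 0.0162 and 0.0434% in MSUS libraries of the with-selection table, against 0.0204, 0.0360, 0.0193, 0.0700 and 0.0368% in Control libraries. Its without-selection shares were 0.142, 0.112, 0.165, 0.0647 and 0.135% in MSUS libraries, against 0.0577, 0.0959, 0.0229, 0.261 and 0.115% in Control libraries. Control 9 was again the highest in both tables.

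Ser, a tRNA with a long arm, had 0.0217, 0.0270, 0.0335, 0.0291 and 0.0190% in MSUS libraries of the with-selection table, against 0.0134, 0.0369, 0.0320, 0.0441 and 0.0311% in Control libraries. Without selection it had 0.164, 0.292, 0.254, 0.497 and 0.139% in MSUS libraries, against 0.158, 0.623, 0.175, 0.185 and 0.165% in Control libraries. Control 5 and MSUS 8 stood above the rest of their groups there. Leu, the other isotype with a long arm, ranged from 0.0450 to 0.0689% in MSUS and from 0.0334 to 0.115% in Control libraries of the with-selection table. Ala ranged from 0.0310 to 0.0531% in MSUS and from 0.0273 to 0.107% in Control libraries of that table. Thr ranged from 0.0168 to 0.0342% in MSUS and from 0.0177 to 0.0721% in Control libraries, so that all 3 ranges were wider among Control animals. Leu ranged in the without-selection table from 0.357 to 0.565% in MSUS and from 0.158 to 0.855% in Control libraries. Ala ranged there from 0.348 to 0.603% in MSUS and from 0.211 to 0.665% in Control libraries. Thr had 0.0353 to 0.274% in MSUS and 0.0337 to 0.214% in Control libraries.

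**Figure D2:**
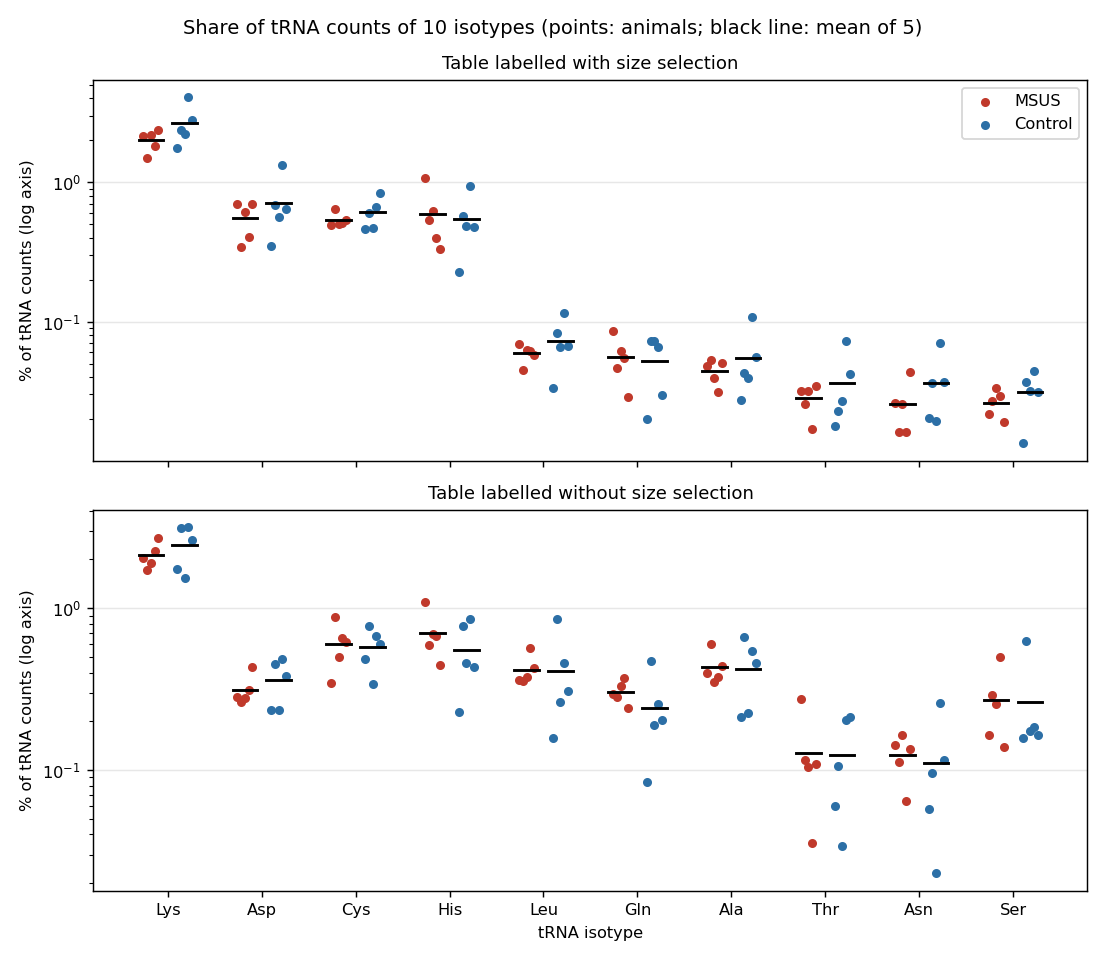
Percentage of tRNA counts held by each of the 10 isotypes (horizontal axis) on a log axis, in the with-selection table (upper panel) and the without-selection table (lower panel). Points are the 5 MSUS (red, left) and 5 Control (blue, right) animals and black lines are means; the groups overlap for every isotype, and Lys has the highest share in both panels.

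Divided by the median length of their genes, the members kept the order of their shares. With-selection the order was Lys, Asp, Cys, His, Leu, Gln, Ala, Thr, Asn, Ser. Neighbours that changed places between libraries were Leu above Gln in 4 of 10, Gln above Ala in 5 of 10, Thr above Asn in 7 of 10 and Asn above Ser in 6 of 10, whereas Ala lay above Thr in 10 of 10. In the without-selection table the order was Lys, His, Cys, Ala, Leu, Asp, Gln, Ser, Thr, Asn. There only Lys lay above its next neighbour in every library. Cys lay above Ala in 9 of 10, and the other neighbours held their order in 5 to 7 of 10. These orders cover the members alone. Without selection iMet, which is not a member, averaged 0.815% of tRNA counts, against 0.624% for His. With selection SeC, also not a member, averaged 0.114%, against 0.0659% for Leu.

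The smallest counts behind these shares set their counting precision. In the with-selection table the lowest count was 100 for Ser in Control 3, a share of 0.0134% with a Wilson 95% interval of 0.0110 to 0.0162%. The lowest without-selection count was 12 for Thr in MSUS 8, a share of 0.0353% with an interval of 0.0202 to 0.0617%, and 17 for Asn in Control 7, 0.0229% with 0.0143 to 0.0367%. For Lys the widest intervals, relative to the share, were 1.73 to 1.79% and 2.89 to 3.37%. Intervals cover counting error only, and reads without molecular identifiers are not independent molecules. Among Control animals the coefficient of variation of a member's share was 25.4 to 60.5% with selection and 29.3 to 82.5% without, which is 5.12 to 45.6 times and 4.12 to 10.5 times the value expected from counting.

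Shares of most members were positively correlated across animals. Of the 45 pairs of isotypes, 44 had a positive Pearson correlation of log2 shares over the 10 with-selection libraries and 43 over the 10 without-selection libraries. The median correlation was 0.64 with selection and 0.50 without. Asp and Lys were the closest pair in both tables (0.94 and 0.98), and the lowest values were those of Gln with Cys (-0.13) and Ser with Thr (-0.30). These pairs share libraries, depth and the tRNA total, so the correlations are given as descriptions. Between tables an isotype's shares in the 10 animals correlated at a Spearman value of 0.44 (Leu) to 0.89 (His).

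The first comparison asked whether MSUS vesicles carried a different level of each isotype relative to all other RNA. With selection all 10 isotypes had a higher mean in MSUS than in Control libraries, but none passed the test. The log2 fold changes on TMM-scaled counts ran from 0.82 (Asn, SE 0.29) to 1.57 (His, SE 0.51), with a median of 1.22 over the 10 rows and of -0.00 over all 10998 features tested. Of all features 49.8% had a positive value. At an adjusted p of 0.05 (edgeR quasi-likelihood test, Benjamini-Hochberg over all features), 0 of 10 members and 0 of 10998 features (0.0%) were called. At an unadjusted p under 0.05, 8 of 10 members were higher, against 3.46% of all features, with Gln and Ser outside. The same held for 8 of the 12 other isotype rows tested. DESeq2 called 33 features, among them His, Ala and Thr, each at an adjusted p of 0.0362; over 14 alternatives the adjusted p of His ran from 0.0362 to 1.00.

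CPM here are counts scaled to library size times the TMM factor, which was 0.411 for MSUS 8 and 1.76 for Control 9 with selection. They are therefore not plain shares of the library, and a low factor raises them. His, the member with the highest fold change, had 4906, 3874, 3243, 6490 and 574 TMM-scaled CPM in MSUS libraries. The Control libraries had 786, 1824, 2089, 812 and 910. MSUS 2, 4, 6 and 8 were above every Control library and MSUS 14 was below them all. His averaged 3818 ± 2190 CPM in MSUS and 1284 ± 622 CPM in Control libraries (SD, n = 5 each; edgeR adjusted p = 0.839). Lys had 9822, 10883, 11429, 29446 and 4052 CPM in MSUS libraries, against 6100, 7536, 9640, 3523 and 5357 CPM in Control libraries. On this scale MSUS 8, the library with the lowest factor, stood far above the others. The log2 fold change of Lys was 1.03 (SE 0.45, edgeR adjusted p = 0.842) with MSUS 8 and 0.50 without it. Each of the 10 isotypes had 4 of 5 MSUS libraries above the Control mean, and the groups overlapped for all 10 (MSUS lay wholly above Control for 0.391% of all features).

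The fold changes of the other tRNA rows had the same sign. All 12 further isotype rows that were tested had a positive log2 value as well, with a median of 0.89. Gly, Glu and Val, which supply most tRNA counts, had log2 values of 1.33 (SE 0.61), 1.45 (SE 0.58) and 1.81 (SE 0.80), with edgeR adjusted p-values of 0.859, 0.839 and 0.858. All tRNA rows together averaged 44.5 ± 15.5% of counts in MSUS libraries and 31.2 ± 11.5% in Control libraries (SD, n = 5 each). When libraries were scaled by their totals alone, the median of all features moved to -0.58 and that of the 10 isotypes to 0.35. All 10 were still positive and 1 had an unadjusted p under 0.05, beside 2326 of 10998 features in either direction. Without MSUS 8, 4 of 10 members had an unadjusted p under 0.05 and their median was 0.70. Without MSUS 14 it was 10 of 10 with a median of 1.46, and without MSUS 14, Control 9 and Control 11 together 10 of 10 with a median of 1.21, again with 0 called after adjustment. How many of all features had such a p without these libraries was not counted. Markers of other cell types also had higher MSUS means in this table. All 8 sperm and spermatid markers had positive log2 values on TMM-scaled counts (median 0.50), with unscaled sums of 506 to 1275 counts in MSUS and 561 to 1513 in Control libraries. So did 8 of 9 muscle and stroma markers (median 0.37), with sums of 418 to 3170 counts in MSUS and 652 to 3782 in Control libraries. All 3 tested blood cell markers were positive (median 0.20), with sums over the list of 121 to 547 counts in MSUS and 227 to 934 in Control libraries. Of 8 tested epididymal epithelium markers 3 were positive and 5 negative (median -0.04). Fewer markers were tested in the without-selection table. There all 3 sperm and spermatid markers were positive (median 0.16), and of the muscle and stroma markers 1 was positive and 1 negative (median 0.13). The 1 blood cell marker was negative (-0.27), and of 6 epididymal epithelium markers 1 was positive and 5 negative (median -0.33). No marker of these 4 lists was at 0 in all libraries, and their part in the result was not tested.

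In the without-selection table the 10 isotypes again had higher MSUS means, with smaller values. Log2 fold changes ran from 0.19 (Asp, SE 0.25) and 0.21 (Lys, SE 0.24) to 0.84 (His, SE 0.39) and 0.88 (Gln, SE 0.35). The median was 0.58, beside 0.01 over 1075 features, of which 50.3% were positive. The 12 other isotype rows were all positive too (median 0.47), with 3 of 12 at an unadjusted p under 0.05 in the edgeR test. As a part of all counts, however, the tRNA rows together averaged 14.4 ± 3.34% in MSUS and 14.1 ± 6.97% in Control libraries of this table (SD, n = 5 each). None of the 10 and 0 of 1075 features (0.0%) passed (edgeR adjusted p = 0.554 to 0.773 for the 10), and DESeq2 also called 0. At an unadjusted p under 0.05, His and Gln were higher, 2 of 10 against 3.53% of all features. DESeq2 gave 4 of 10, beside 99 of 1075 features in either direction. Gln had 607, 527, 626, 750 and 225 CPM in MSUS libraries, against 133, 306, 551, 243 and 258 CPM in Control libraries. MSUS 14 was the only MSUS library below the Control mean of 298 CPM. Scaled by library totals alone, Lys (-0.11) and Asp (-0.13) had negative values and the other 8 positive ones, beside a median of -0.30 over all features. Asn had the one call among the members, when MSUS 14, Control 9 and Control 11 were left out together. Its log2 value was then 1.63 (SE 0.33, edgeR adjusted p = 0.0394), against 0.74 (SE 0.37, adjusted p = 0.554) with all 10 animals. Those libraries were picked for low tRNA shares with selection, whereas without selection Control 5 was lowest (6.20%). They held the highest Control values of Asn (249 and 147 CPM) and its lowest MSUS value (126 CPM). The call therefore rests on which libraries were left out. The adjusted p of Asn over 14 alternatives lay between 0.0394 and 0.775.

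The second comparison set each isotype against the tRNA total of its own library. No member passed the test by this measure. With selection, 8 of 10 had a lower mean log2 share in MSUS libraries and 2, Gln (0.18, SE 0.47) and His (0.15, SE 0.44), a higher one. The lowest values were those of Asn (-0.45, SE 0.43) and Lys (-0.37, SE 0.23). Benjamini-Hochberg adjusted p-values over 22 isotype rows lay between 0.775 and 0.821 (exact two-sided permutation test, smallest p possible 0.00794), with 0 rows at an unadjusted p under 0.05. Of all 22 rows 81.8% had a negative difference and 0.0% were called. Without selection, 8 of 10 were higher in MSUS libraries, from 0.05 for Cys (SE 0.31) to 0.53 for Gln (SE 0.41) and 0.52 for Asn (SE 0.63), and Lys (-0.15, SE 0.24) and Asp (-0.15, SE 0.26) were lower. Adjusted p-values there were 0.891 to 0.897 by the same exact permutation test, and 77.3% of the 22 rows had a positive difference.

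**Figure D3:**
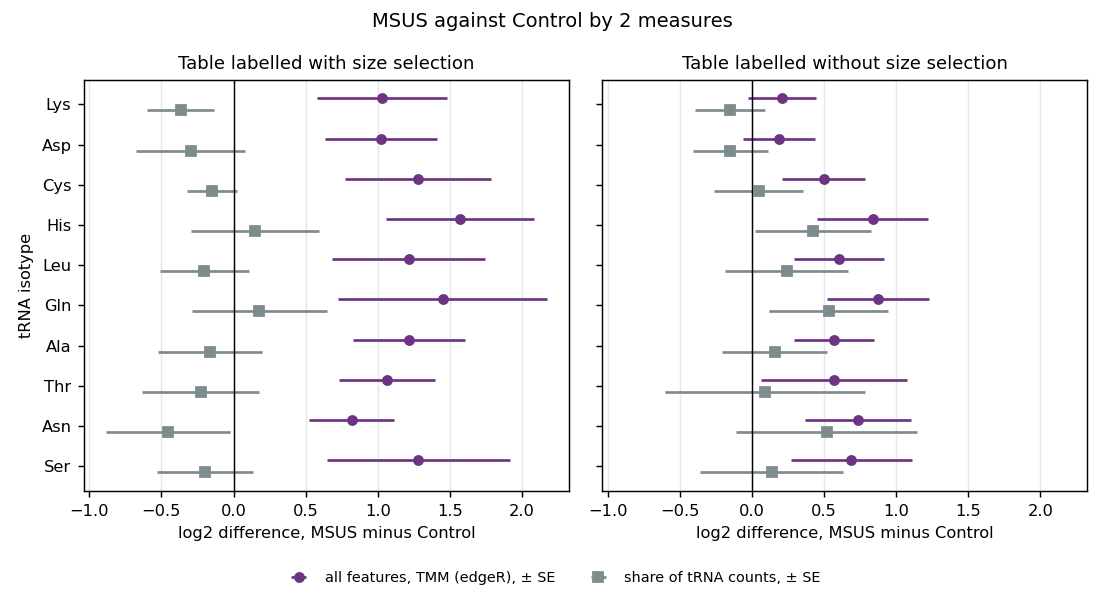
Log2 difference between MSUS and Control libraries for each isotype, as a level among all features on TMM-scaled counts (purple circles) and as a share of tRNA counts (grey squares), with standard errors, 5 animals per group. The circles lie right of 0 in both tables, from 0.82 to 1.57 and from 0.19 to 0.88, and the squares lie on both sides of it, from -0.45 to 0.18 and from -0.15 to 0.53.

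The direction of the share differences depended on single animals and on the denominator. Control 3 had the lowest sum of the members in both tables. Without it 10 of 10 members were lower in MSUS in the with-selection table (median -0.45). Of these, 3 of 10 had an unadjusted p under 0.05, with a smallest adjusted p of 0.233 (exact permutation test). How many of the other isotype rows had such a p was not counted. Leaving out Control 9 gave 4 higher and 6 lower. With the denominator changed to all counts of the library, 10 of 10 were higher in MSUS in that table (median 0.33) and 8 of 10 in the other (median 0.28). With mature miRNA counts as the denominator the medians were 0.48 and 0.20. No member was called under any of these settings.

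The third comparison set the same libraries against each other in the 2 tables. As shares of tRNA, 6 members were lower in the with-selection table in 10 of 10 animals. The mean differences on the log2 scale were -3.12 for Ala (SD 0.48), -3.08 for Ser (SD 0.69), -2.59 for Leu (SD 0.50), -2.35 for Gln (SD 0.53), -1.83 for Asn (SD 0.74) and -1.79 for Thr (SD 0.75), each with an adjusted p of 0.00253 by an exact sign-flip test (two-sided, 10 animals, smallest unadjusted p 0.00195). Ala averaged 0.0494 ± 0.0223% of tRNA counts with selection and 0.426 ± 0.148% without (SD, n = 10 animals). Ser averaged 0.0288 ± 0.0090% with selection and 0.265 ± 0.165% without.

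Asp was higher with selection in 10 of 10 animals, by 0.85 on the log2 scale (SD 0.40, adjusted p = 0.00253, exact sign-flip test). It averaged 0.632 ± 0.283% of tRNA counts with selection and 0.336 ± 0.0945% without (SD, n = 10). His (-0.16, SD 0.29), Lys (0.02, SD 0.30) and Cys (0.00, SD 0.37) did not pass, with adjusted p-values of 0.149, 0.904 and 0.963 by the same exact test. Of the queuosine isotypes, Asp was higher, Asn lower and His not called, and Tyr, which is not among the 10, was lower in 10 of 10 animals (-2.92, SD 0.64, adjusted p = 0.00253, exact sign-flip test). Relative to the isotype rows other than Gly, Glu and Val, His was higher with selection by 0.55, Lys by 0.73 and Cys by 0.72 (adjusted p = 0.00218 each, exact sign-flip test). Every member passed with that denominator. It contains the members themselves, and most of its rows were lower with selection as shares of tRNA. These 3 values are therefore relative to falling rows and show no rise of His, Lys or Cys among tRNA counts. Of the 12 other isotype rows, 2 were called higher and 9 lower with selection, and over all 22 rows 13.6% were called higher and 68.2% lower.

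**Figure D4:**
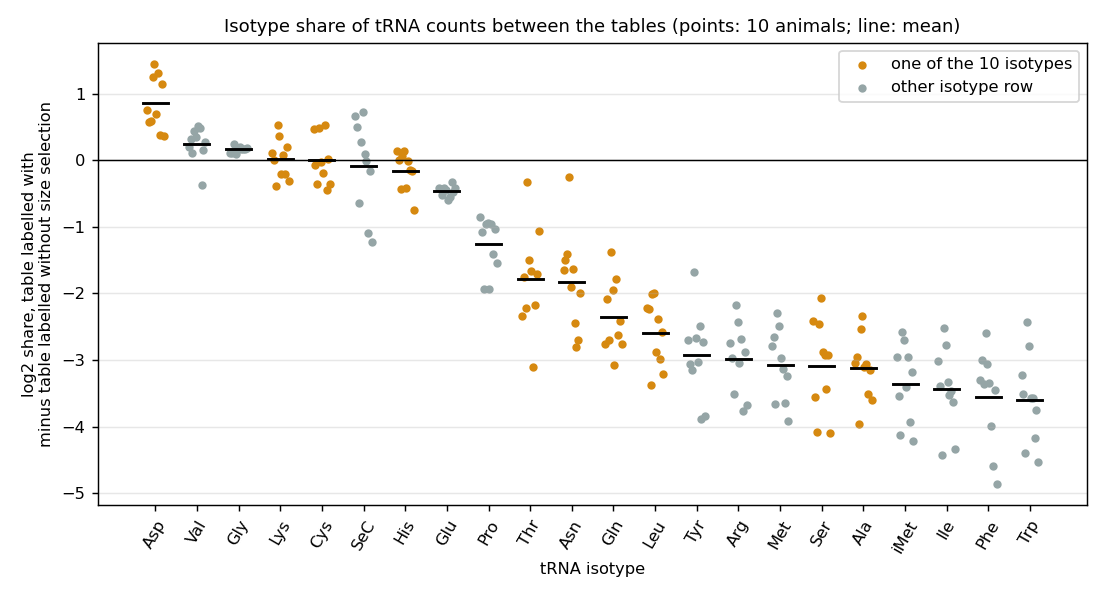
Log2 share of tRNA counts in the with-selection table minus that in the without-selection table for 22 isotype rows, one point per animal (n = 10), with black lines at the mean; the 10 isotypes are orange and the other rows grey. Asp lies above 0 in all 10 animals, Lys, Cys and His scatter around 0, and Thr, Asn, Gln, Leu, Ser and Ala lie below 0 in all 10.

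The fit across all features in both tables called the same 7 members. That fit (edgeR, condition as a covariate, 5725 features) ignored the pairing and took the 2 samples of a library as independent, which they are not. In it Asp was higher with selection by 1.43 (SE 0.25, adjusted p = 2.6e-05) and Ala lower, at -2.57 (SE 0.25, adjusted p = 9.7e-10). Ser (-2.46), Leu (-1.94), Gln (-1.56), Thr (-1.53) and Asn (-1.49) were called lower. This gave 1 member higher and 6 lower, against 19.9% and 18.8% of all features. Lys was at 0.63 (SE 0.26, adjusted p = 0.0588) and Cys at 0.65 (SE 0.30, adjusted p = 0.0911). With animal as a replicate block both passed, Lys at 0.49 (SE 0.17, adjusted p = 0.0213) and Cys at 0.47 (SE 0.17, adjusted p = 0.0287). The 7 members kept their calls in the blocked edgeR fit, with Asp at 1.31 (SE 0.16, adjusted p = 3.7e-07) and Ala at -2.66 (SE 0.14, adjusted p = 3.7e-14). Without the block the median of all features was 0.06, and scaling by library totals alone moved it to 1.06. Under that scaling the same 7 members were called in the same directions, with Asp at 2.27, Ala at -1.74 and Thr at -0.67. His (1.22, adjusted p = 4.1e-05), Lys (1.43) and Cys (1.42) were called higher as well. Most of the 5725 features were also called under that scaling, whose median was 1.06, so these added calls do not set the members apart.

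The MSUS difference in share was not shown to depend on the table. All 10 members had a more negative difference with selection than without, from -0.15 (Asp) to -0.97 (Asn), as had 21 of all 22 isotype rows (95.5%). Asn had an unadjusted p of 0.0238 and an adjusted p of 0.262 (exact permutation of group labels over 10 animals), and 0 of 10 members and 0 of 22 rows (0.0%) passed. For Asn the table difference averaged -2.31 in MSUS animals and -1.34 in Control animals.

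Mitochondrial tRNAs of the same isotypes, which are transcribed in the organelle by another polymerase, were read from their own rows. Of 12 rows 10 were tested in the with-selection table, and all 10 had positive log2 values (median 0.80) with 0 called. mt-Th, the mitochondrial His tRNA and the most abundant, averaged 11711 ± 9829 CPM in MSUS and 5100 ± 2635 CPM in Control libraries (SD, n = 5 each), a log2 value of 1.20 (SE 0.61, edgeR adjusted p = 0.879). Without selection, 7 of 8 tested rows were positive (median 0.66). mt-Th averaged 1177 ± 544 CPM in MSUS and 544 ± 238 CPM in Control libraries there (log2 1.10, SE 0.40, edgeR adjusted p = 0.554), and mt-Tt was the one negative row at -0.10 (SE 0.30).

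Messenger RNAs of the tRNA pathway were tested in the with-selection table only, since none passed the count filter in the other. All 10 cytosolic synthetases that charge the members were tested, with 5 positive and 5 negative log2 values and 0 called. Sars, the Ser synthetase, was at 0.18 (SE 0.12), Aars, the Ala synthetase, at 0.16 (SE 0.10) and Nars, the Asn synthetase, at 0.03 (SE 0.11). Of 36 genes of tRNA transcription, processing and modification 19 were tested, 8 positive and 11 negative, with 0 called. Ssb, the La protein that binds the 3′ end of new tRNA transcripts, was at -0.04 (SE 0.11), Elp3 at 0.19 (SE 0.13) and Nsun2, a tRNA cytosine methyltransferase, at -0.09 (SE 0.12). Of 17 ribonucleases and their inhibitor 8 were tested, 4 in each direction and 0 called. Rnh1, the inhibitor of angiogenin, was at 0.03 (SE 0.12), the epididymal gene Rnase12 at 0.10 (SE 0.15) and Dicer1 at -0.14 (SE 0.14). The medians of these 3 lists were -0.01, -0.04 and 0.00, beside -0.00 over all features.

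The tRNA rows Val (Pearson correlation 0.98 with selection and 0.91 without) and Glu (0.97 and 0.86) followed the summed members closely in log2 CPM over the 10 libraries. Leaving tRNA rows out, 1037 features tested in both tables were ranked by their likeness to that sum. Gm23928, a small nuclear RNA, the class that includes the RNAs of the splicing machinery, came first with Pearson correlations of 0.91 with selection and 0.92 without. Gm29480, annotated as antisense, had 0.85 and 0.92, followed by the small nuclear RNA copies Gm22126 (0.88 and 0.85), Gm25581 (0.81 and 0.84) and Gm24525 (0.92 and 0.81). These rows share libraries and scaling factors with the members, copies of small nuclear RNA genes share reads, and without strand information reads of an antisense gene and its partner cannot be told apart.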

How the data were processed

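The authors' deposited tables hold estimated counts, 1 row per annotated RNA, and many values are not whole. GRCm38 is the build, and STAR and edgeR are tools, that the submitters' processing notes name, with no versions. How reads were assigned to tRNA isotypes is not stated in the labels. For the count tests the estimated counts were rounded, a loss of 0.0504 to 0.0992% of counts with selection and 0.266 to 0.689% without.

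Each table was fitted over all features in edgeR 4.0.16 (R 4.3.3): filterByExpr, TMM scaling, robust quasi-likelihood test, Benjamini-Hochberg adjustment, threshold 0.05. SEs were derived from the F statistic. DESeq2 1.42.0, library totals without TMM, no filter, other denominators and left-out animals were alternatives. Shares of tRNA counts were compared on the log2 scale over 22 isotype rows with a mean count of at least 10, by exact permutation or sign-flip tests.

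Animal numbers in the titles name the same library in both runs. Deviations from group means over 22 isotype rows had a correlation of 0.466 to 0.856 between an animal's 2 samples, and 8 of 10 animals matched themselves best. All 10 members are named. Of each pathway list, the 3 tested genes with the highest mean CPM are named. Features most alike were ranked by the smaller of their 2 correlations. The members and lists were chosen with earlier results of these data known. The scripts were tested on simulated data. tRNA sequences for Lys, Asp, Cys and Gln are not shown here.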

Additional observations from a re-analysis of the deposited data

Results flagged for a closer look

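One value stood far from its group. Ser took 0.623% of tRNA counts in Control 5 of the without-selection table, while the other 4 Control libraries lay between 0.158 and 0.185%. It was singled out by its gap to the nearest library as a part of the group's range. Of 40 groups tested in this way 1 was singled out, and chance singles out about 1 in 20. In the with-selection table Control 5 had 0.0369% Ser, inside the Control range of 0.0134 to 0.0441%.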

How the results depend on the processing

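Counts of features called between MSUS and Control in the with-selection table (0) became 3 with library totals only and 33 with DESeq2. With no count filter 48 of 61275 features were called. When 1 animal was left out the count was 0 to 2 (2 without Control 3). With no filter Thr, Asn and Asp were called (adjusted p = 0.000235, 0.0296 and 0.0184); over 14 alternatives the largest adjusted p was 1.00 for each. In the without-selection table the count (0) became 1 with library totals only and 2 without MSUS 14, Control 9 and Control 11; it was 0 without any single animal. Between the tables, 2217 of 5725 features were called. Of the same 5725, 2430 were called with the replicate block and 4632 with library totals only. With no filter, where more features were tested, 8182 were called. The replicate block changed no member's call other than those of Lys and Cys. With library totals only, His, Lys and Cys gained the between-table call (adjusted p = 4.1e-05, 2.0e-09 and 3.2e-08). With no filter Lys and Cys gained it (adjusted p = 6.6e-06 and 0.00603), Thr and Gln lost it (adjusted p = 0.109 and 0.192), and His was not called (adjusted p = 0.0537). An unpaired test of shares between tables changed no call.

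Signs turned as follows, with no call on either side except where stated. Without-selection fold changes turned with library totals only for Lys (-0.11) and Asp (-0.13). With-selection share differences turned when divided by the isotype rows other than Gly, Glu and Val for Ala (0.0877), Thr (0.0200), Cys (0.10), Leu (0.0474) and Ser (0.0494). Divided by all counts, Ala (0.37), Thr (0.31), Asn (0.0822), Lys (0.17), Asp (0.24), Cys (0.39), Leu (0.33) and Ser (0.34) turned. Divided by miRNA counts, the same 8 turned, Ala to 0.52, Thr 0.45, Asn 0.23, Lys 0.31, Asp 0.38, Cys 0.53, Leu 0.48 and Ser 0.48. Without the 3 libraries Ala (0.23), Thr (0.22), Cys (0.0670), Leu (0.0553) and Ser (0.13) turned. Divided by the other isotype rows, Cys without selection turned to -0.0324, and His between tables to 0.55, where it was called, as was every member. The cause was not tested. Leaving out 1 animal at a time gave ranges across 0 for the without-selection fold change of Thr (-0.0262 to 0.90), for with-selection shares of Ala (-0.37 to 0.12), Gln (-0.12 to 0.39), His (-0.13 to 0.38) and Thr (-0.44 to 0.0648), and for without-selection shares of Ala (-0.0509 to 0.36), Cys (-0.13 to 0.23), Leu (-0.0443 to 0.57), Ser (-0.12 to 0.51) and Thr (-0.30 to 0.48).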
